A study of Homo sapiens with 12 samples.

Results

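The heat shock proteins and DnaJ proteins keep newly made and damaged proteins folded. HSP70 proteins bind unfolded stretches of a client, DnaJ proteins (J-domain proteins, or HSP40) deliver clients to HSP70 and trigger its ATPase, HSP110 proteins and cofactors such as HSPBP1 exchange its nucleotide, HSP90 finishes many kinases and receptors, small heat shock proteins hold clients in a soluble state, and HSPD1 and HSPE1 form the folding chamber of mitochondria. The heat shock factors, of which HSF1 is the stress-responsive form, bind inverted nGAAn repeats in the promoters of the inducible members, while others are made constantly, and tumor cells are known for high levels of many of them. The members described here were the genes whose symbol starts with HSPA, HSPB, HSPD, HSPE, HSPH, HSP90 or DNAJ, without 5 chaperones of the endoplasmic reticulum (ER) response (HSPA5, HSP90B1, DNAJB9, DNAJB11 and DNAJC3). They numbered 76 of the 34595 genes with a value, and the rule itself used gene symbols only. By name they fell into 12 HSP70, 3 HSP110, 6 HSP90, 8 small heat shock protein, 2 mitochondrial chaperonin, 4 DNAJA, 11 DNAJB and 28 DNAJC genes, plus HSPBP1 and HSPBAP1, which share the prefix but are not small heat shock proteins. RefSeq lists 7 of the 76 as pseudogenes, among them HSPA7, the neighbor of HSPA6, and HSPBL2, a copy of HSPB1.

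Gene expression was profiled in CD133+ and CD133- cells from 3 established gastric cancer cell lines, KATO-III, SNU-216 and SNU-601, and no group received a drug or a genetic change. CD133, the product of PROM1, is a glycoprotein of the cell surface used as a marker of stem-like tumor cells. Cells stained for CD133 were sorted by flow cytometry, the CD133+ fraction being the brightest 10% of CD133+ cells and the CD133- fraction the dimmest 6% of CD133- cells, and each of the 6 sorted populations was measured on 2 Illumina HT-12 v3 arrays (12 arrays). The array labels name SNU-216, where the design text deposited with them names SNU201. Whether the 2 arrays of a population came from separate sorts is not stated, so the spread between them may be technical. The p-values given below rest on that spread alone, except those over the lines. The p-values over the lines also take in how far the change differed between the lines. All cells were grown in RPMI1640 with calf serum. By stain, the CD133- cells came from the range that overlapped an isotype control antibody, and the CD133- fraction of each line still held PROM1 signal on the arrays.

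As a check of the labels, PROM1 read 9513 and 8847 on the KATO-III CD133+ arrays against 4056 and 4493 on the CD133- arrays. It was higher in the CD133+ cells by 1.10 on the log2 scale in KATO-III, by 2.02 in SNU-216 and by 1.86 in SNU-601 (limma adjusted p = 2.38e-06, 3.02e-07 and 5.65e-06). Of the rows listed as epithelial markers, 7 of 7 lay above the floor described below on all 12 arrays. Their summed intensity ranged from 55081 to 65242, and it counts EPCAM again under its older symbol TACSTD1. CDH1 of this list was lower in CD133+ cells of KATO-III and SNU-601 (log2 -0.70 and -0.25, limma adjusted p = 6.83e-05 and 0.0362). It was higher in those of SNU-216 (log2 0.30, limma adjusted p = 0.0109). TACSTD1 went the other way, higher in CD133+ cells of KATO-III (log2 0.11, limma adjusted p = 0.0402) and lower in those of SNU-216 (log2 -0.13, limma adjusted p = 0.0251). KRT18 was lower in CD133+ cells of SNU-216 (log2 -0.39, limma adjusted p = 0.0176). The other markers of this list, the EPCAM row among them, were called in no line. The leukocyte markers PTPRC and CD3E, 3 of 6 fibroblast markers (COL3A1, DCN and PDGFRB) and 4 of 4 endothelial markers were at the floor on every array. Other markers of those lists varied by line and fraction. LYZ had a mean intensity of 7267 against 4615 in KATO-III (CD133+ first) and of 9101 against 9694 in SNU-601, and was at the floor in SNU-216. CD68 was lower in CD133+ cells over the lines (log2 -0.98, limma adjusted p = 0.00868), and CD14 was lower in those of KATO-III (log2 -0.53, limma adjusted p = 0.00609). The fibroblast marker LUM had a mean of 78.0 against 763 in KATO-III (log2 -3.31, limma adjusted p = 1.73e-06), was higher in CD133+ cells of SNU-216 (log2 0.90, limma adjusted p = 0.00323) and was at the floor in SNU-601. COL1A1 was higher in CD133+ cells of KATO-III (log2 0.84, limma adjusted p = 0.00977). The part of these genes in the results was not tested. Arrays of a population correlated at 0.993 to 0.995 (Pearson's r over log2 intensities of the tested genes), and no array stood apart.

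The intensity is the normalized brightness of a gene's probes, on a linear scale that runs below 0. Where intensities of a line are set against each other, the 2 CD133+ arrays come first and the 2 CD133- arrays second. Values under a floor of 32.7 were set to the floor before log2 was taken, and a gene was tested where it exceeded the floor on at least 2 arrays. This held for 61 of the 76 members and for 58.2% of all genes. All 12 arrays were above the floor for 43 members, and the remaining 18 tested members were above it on some arrays only. HSPB6, a small heat shock protein, exceeded the floor on 1 array, with 38.2. The 14 members at the floor on all arrays were DNAJB3, DNAJB4, DNAJB7, DNAJC6, DNAJC28, HSP90AB4P, HSP90AB6P, HSP90B3P, HSPA6, HSPA12A, HSPA12B, HSPB2, HSPB7 and HSPB9. HSPA6 is a strictly stress-induced HSP70, and its intensities lay between -14.0 and 9.61. DNAJB4 is likewise heat-inducible, and its intensities lay between -17.6 and 11.3.

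The promoters of the members were searched for 1 form of the sequence that heat shock factors are known to bind. RefSeq promoters (GRCh38.p14, 250 bases before to 50 bases after each transcript start) were found for 62 of the 76 members, with 83 promoters among them. The members without an entry were DNAJB3, DNAJC1, DNAJC5B, DNAJC22, DNAJC24, HSP90AB2P, HSP90AB4P, HSP90AB6P, HSP90B3P, HSPA7, HSPA12B, HSPA14, HSPB2 and HSPBL2. The motif GAANNTTCNNGAA, searched on both strands, was present in 7 of these 83 promoters (8.43%) and in 172 of all 35116 promoters (0.490%). When 1 mismatched base was allowed, it was present in 20 of the 83 member promoters and in 6.24% of all promoters. These 20 were of 19 members, with HSPA1A, HSPA1B, HSPA4L, DNAJB1 and HSPB1 among those without an exact match. For the 7 promoters with the exact motif, the stretch around it is printed on the strand of the gene, 5′ to 3′. The motif is in capitals, and the levels of these 7 genes are described further on. Matches that overlap run together in 1 capital stretch.
HSPA6 (chr1:161524442-161524502): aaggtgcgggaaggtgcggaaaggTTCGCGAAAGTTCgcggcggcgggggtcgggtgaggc
HSPD1 (chr2:197500044-197500090): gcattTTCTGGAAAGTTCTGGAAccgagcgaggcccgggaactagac
HSP90AB1 (chr6:44247754-44247867): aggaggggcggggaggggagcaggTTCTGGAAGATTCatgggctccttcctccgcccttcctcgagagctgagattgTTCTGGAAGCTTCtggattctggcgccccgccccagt
DNAJB6 (chr7:157336849-157336909): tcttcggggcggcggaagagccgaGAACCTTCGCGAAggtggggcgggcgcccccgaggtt
DNAJA1 (chr9:33025252-33025300): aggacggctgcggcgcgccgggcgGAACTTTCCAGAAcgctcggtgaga
HSPA8 (chr11:123062155-123062386): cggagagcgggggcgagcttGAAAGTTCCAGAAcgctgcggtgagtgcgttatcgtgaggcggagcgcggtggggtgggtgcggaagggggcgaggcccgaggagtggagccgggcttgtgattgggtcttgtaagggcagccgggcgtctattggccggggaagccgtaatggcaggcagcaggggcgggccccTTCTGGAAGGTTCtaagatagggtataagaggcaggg
HSP90AA1 (chr14:102087096-102087156): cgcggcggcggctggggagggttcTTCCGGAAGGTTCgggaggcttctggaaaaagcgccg

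HSPD1, HSP90AB1 and HSPA8 each held 2 matches. Of the 7 genes, HSPA6 was at the floor on every array and the other 6 were above it on all 12. A match is a description of the letters in a window and not evidence that a factor was bound, and where there was no match only these letters were absent from this window.

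The members with the smallest spans across the 6 populations were HSP90AB1, DNAJA1, HSPA8 and HSPA9. HSP90AB1, the constitutive HSP90, read 12770 and 12066 in KATO-III CD133+ and 12845 and 12808 in KATO-III CD133- cells. It read 12658 and 12162 against 13132 and 12327 in SNU-216, and 12075 and 12421 against 12799 and 13304 in SNU-601. All 12 arrays thus lay within a narrow band, and the log2 means of the 6 populations spanned 0.09. Over the lines the log2 difference between CD133+ and CD133- cells was -0.06 ± 0.04 (SE, n = 6 arrays a fraction, 95% interval -0.14 to 0.02, limma adjusted p = 0.332). DNAJA1, a J-domain partner of HSP70, spanned 0.10, with 12 arrays between 12786 and 14398 and a log2 difference over the lines of -0.03 (95% interval -0.12 to 0.06). HSPA8, the constitutive HSP70, spanned 0.15, from 10747 to 12958, with a log2 difference of -0.03 (95% interval -0.12 to 0.05). HSPA9, the mitochondrial HSP70 known as mortalin, spanned 0.22, from 11506 to 14338, with a log2 difference of -0.05 (95% interval -0.16 to 0.05). The F-test across the lines called none of these 4 genes (limma adjusted p = 0.969 for HSP90AB1, 0.453 for DNAJA1, 0.0920 for HSPA8 and 0.0571 for HSPA9). Between pairs of lines, HSPA8 was lower in KATO-III than in SNU-216 (log2 -0.11, limma adjusted p = 0.0455). HSPA9 was higher in KATO-III than in SNU-216 (log2 0.11, limma adjusted p = 0.0464) and lower in SNU-216 than in SNU-601 (log2 -0.12, limma adjusted p = 0.0463).

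Small spans were common among bright genes. The 554 tested genes with a mean intensity above 10000 had a median span of 0.29 log2 units between populations, and the 8 members among them had a median of 0.25. The median was 1.07 over all tested genes and 1.00 over the 61 tested members. HSPH1, HSP90AA1 and DNAJB1 differed by line, and none of them differed between the fractions by test. HSPH1, the main HSP110, read 9337 to 12337 and was higher in KATO-III than in SNU-216 and SNU-601, by 0.21 and 0.26 on the log2 scale (limma adjusted p = 0.00292 and 0.000936). HSP90AA1, the inducible HSP90, read 6455 to 8917 and was lowest in SNU-601, below SNU-216 by a log2 difference of 0.30 (limma adjusted p = 0.000363). DNAJB1, the HSP40 that rises with heat, read 2314 and 2498 in KATO-III CD133+ and 2209 and 2462 in KATO-III CD133- cells, against 4236 to 5021 over the 8 arrays of the other lines. It was lower in KATO-III than in SNU-216 (log2 -1.01), and its log2 difference between the fractions over the lines was -0.03 (95% interval -0.15 to 0.09).

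**Figure D1:**
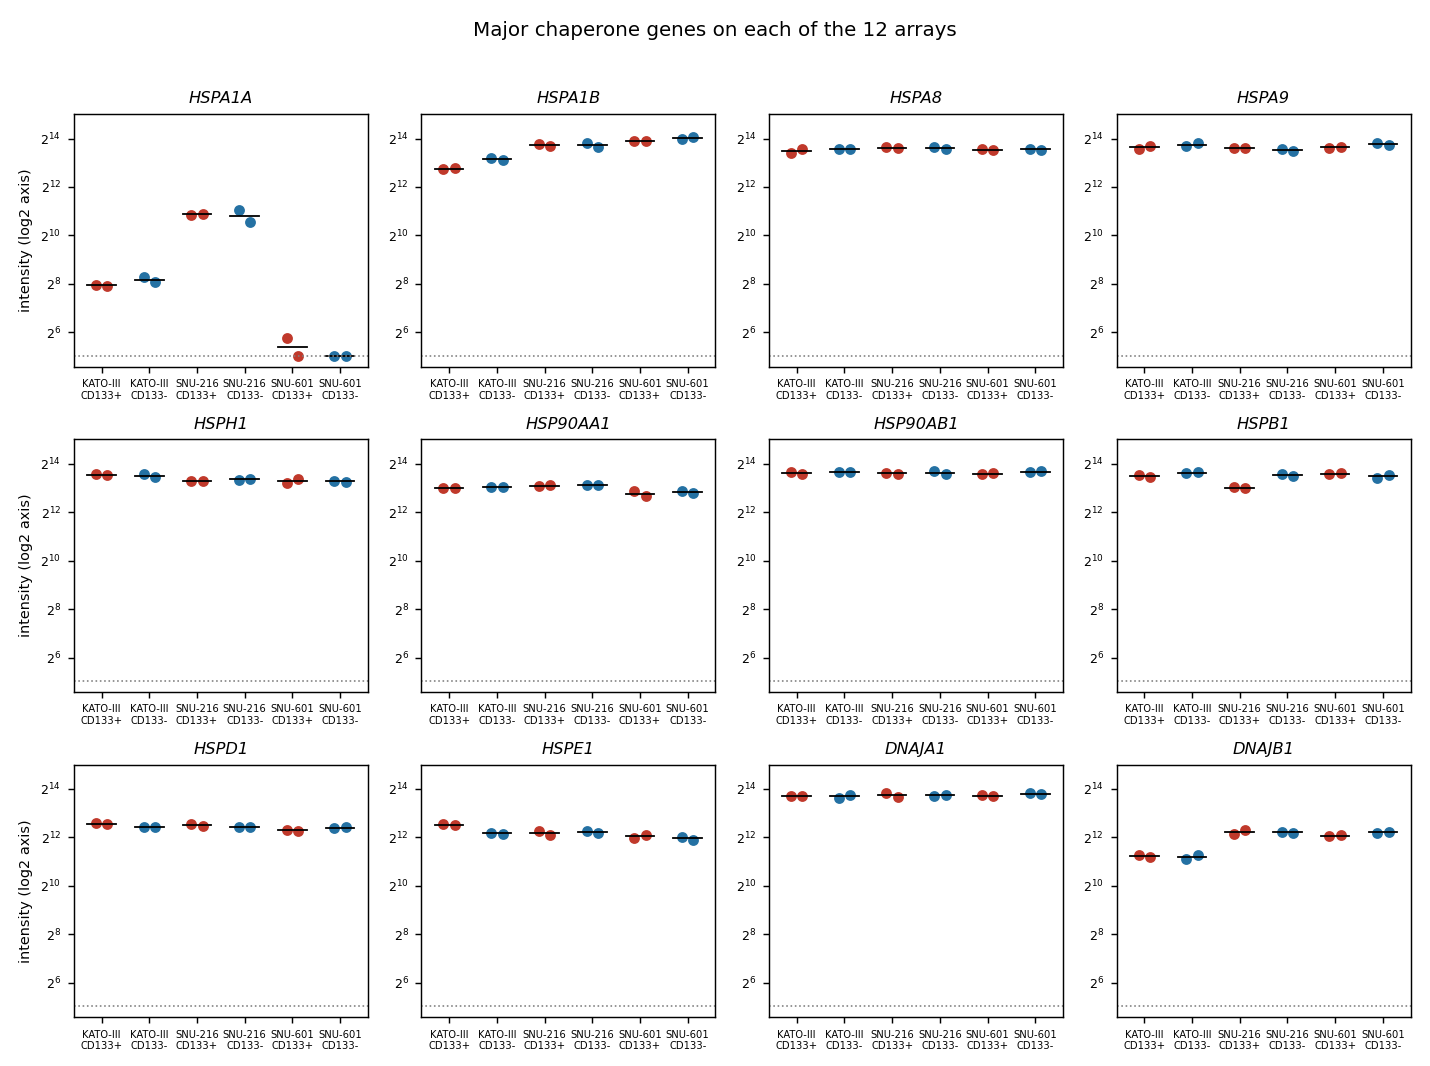
Intensity (log2 axis) of 12 major chaperone genes on each of the 12 arrays, CD133+ in red and CD133- in blue, with a bar at the mean of the 2 log2 values and a dotted line at the floor of 32.7. HSPA8, HSPA9, HSP90AB1 and DNAJA1 form level rows, DNAJB1 is lower in KATO-III, and HSPB1 dips in the CD133+ cells of SNU-216. HSPA1A runs from at or near the floor in SNU-601 to its highest level in SNU-216. Levels of different genes come from different probes and are not to be ranked against each other.

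Between the lines, most members differed. The F-test called 46 of 61 (75.4%), beside a background of 72.3% of all tested genes. Pairwise, 38 members (62.3%) differed between KATO-III and SNU-216, 34 (55.7%) between KATO-III and SNU-601, and 39 (63.9%) between SNU-216 and SNU-601, beside backgrounds of 62.0%, 58.6% and 56.5%. The members were thus about as line-dependent as the genes tested in all. In bulk samples such as these, fewer cells that express a gene and less RNA of it per cell cannot be told apart.

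**Figure D2:**
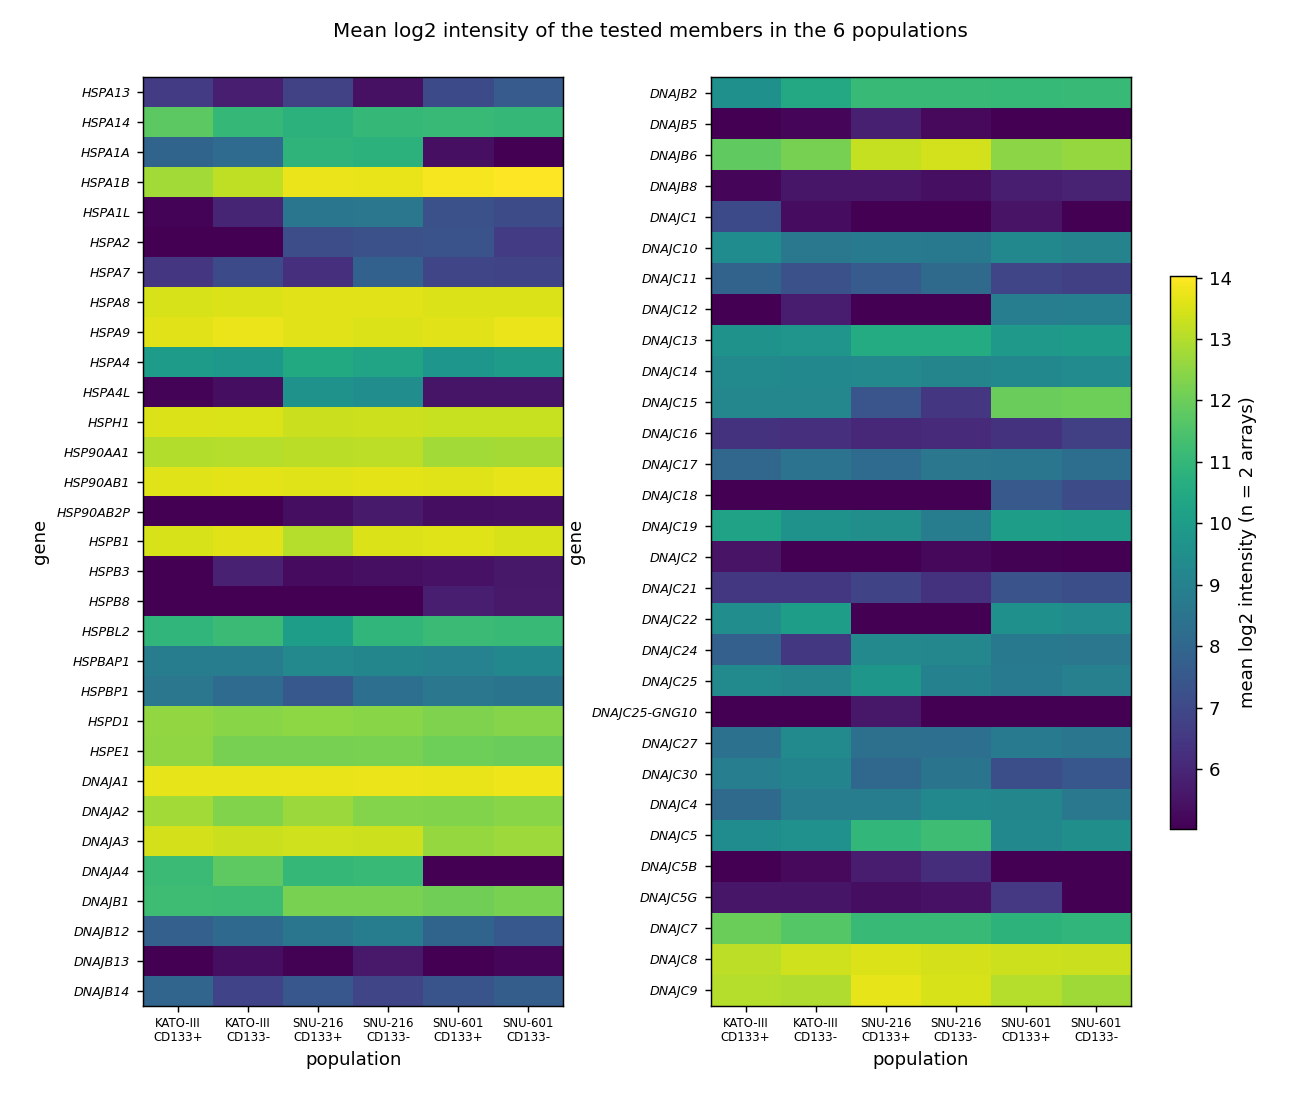
Mean log2 intensity (n = 2 arrays) of the 61 tested members in the 6 populations, in the order HSP70, HSP110, HSP90, small heat shock proteins, cofactors, mitochondrial chaperonin, DNAJA, DNAJB and DNAJC. Adjacent columns are the 2 fractions of a line. For most genes the step between lines is larger than the step between fractions, with DNAJA4, DNAJC15, DNAJC22, DNAJC12, HSPA1A and HSPA4L as the widest.

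DNAJA4, a cytosolic J-domain protein, had the widest span of all members, 6.75 log2 units. It read 2358 and 2221 against 3503 and 3519 in KATO-III, 2175 and 1952 against 2217 and 2273 in SNU-216, and between -11.7 and 7.02 over the 4 arrays of SNU-601. The gene was therefore at the floor in SNU-601, and was at least 86.7-fold higher in KATO-III and at least 65.8-fold higher in SNU-216. These bounds, and those that follow, set the mean of the bright line over the floor, and the limma adjusted p of both contrasts was below that of every other member (6.48e-13 and 3.46e-13).

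DNAJC15, a mitochondrial J-domain protein related to the import motor, was highest in SNU-601. It read 3958 and 4103 in CD133+ and 4000 and 4371 in CD133- cells of SNU-601. In KATO-III it read 611 and 572 against 557 and 624, and in SNU-216 181 and 156 against 90.5 and 84.1. It was 6.95-fold higher in SNU-601 than in KATO-III and 33.9-fold higher than in SNU-216 (limma adjusted p = 9.63e-10 and 8.73e-12).

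DNAJC22 was at the floor in SNU-216, where its 4 arrays lay between -1.64 and 13.7. It read 712 and 678 against 1062 and 1096 in KATO-III, and 745 and 752 against 606 and 716 in SNU-601. It was at least 26.5-fold higher in KATO-III and at least 21.5-fold higher in SNU-601. DNAJC12, which is known to assist the aromatic amino acid hydroxylases, was also at the floor in SNU-216. It read 466 to 483 over the 4 SNU-601 arrays, and was at least 14.6-fold higher there than in SNU-216. In KATO-III it read 10.7 and 4.48 against 49.9 and 54.9.

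HSPA4L, an HSP110, was a gene of SNU-216 in this panel, with 781 and 783 in CD133+ and 750 and 639 in CD133- cells. In KATO-III its arrays lay close to the floor, with 36.5, 6.42, 41.3 and 40.6, and in SNU-601 they reached 57.5. It was 15.7-fold higher in SNU-216 than in SNU-601, and higher than in KATO-III by 19.6-fold with the array at 6.42 counted at the floor (limma adjusted p = 5.97e-09 and 3.46e-09). The 3 lines differed in 6 of 9 tested HSP70, 3 of 3 HSP110, 1 of 3 HSP90 and 3 of 4 small heat shock protein genes. They also differed in 2 of 2 mitochondrial chaperonin, 2 of 2 cofactor, 3 of 4 DNAJA, 6 of 8 DNAJB and 20 of 26 DNAJC genes. Of all tested genes 72.3% differed, and no family was tested against this share.

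The 2 stress-inducible HSP70 genes HSPA1A and HSPA1B ran in different orders. HSPA1A read 251 and 242 against 310 and 268 in KATO-III, and 1831 and 1910 against 2146 and 1488 in SNU-216. Over both fractions SNU-216 was 6.86-fold above KATO-III (limma adjusted p = 3.68e-07). In SNU-601 it was above the floor on 1 of 4 arrays, with 54.4. HSPA1B read 6894 and 6970 against 9307 and 8869 in KATO-III, 14138 and 13402 against 14251 and 12703 in SNU-216, and 15449 and 15102 against 16123 and 17152 in SNU-601. The line with the lowest HSPA1A signal was thus the line with the highest HSPA1B signal, 2.01-fold above KATO-III (limma adjusted p = 5.57e-08). HSPA1L, the third gene of this cluster and one known from testis, read 342 to 433 in SNU-216, 133 to 164 in SNU-601 and 34.2 to 74.1 in KATO-III. HSPA1A and HSPA1B are near-identical in sequence and HSPA1L is close to them, the probes are not given with the values, and the split of signal between the 3 rows is therefore uncertain.

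Several dim members were above the floor in 1 or 2 lines only. DNAJC18 was at the floor in KATO-III and SNU-216, read 188 and 183 in CD133+ and 138 and 135 in CD133- cells of SNU-601, and was at least 4.87-fold higher in SNU-601. HSPA2, an HSP70 known from spermatogenesis, was at the floor in KATO-III and at least 4.52-fold higher in SNU-216 and at least 3.85-fold higher in SNU-601. HSPB8, a small heat shock protein that works with BAG3, was above the floor in SNU-601 alone, where it read 40.4 to 60.9 and was at least 1.61-fold higher than in the other lines.

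**Figure D3:**
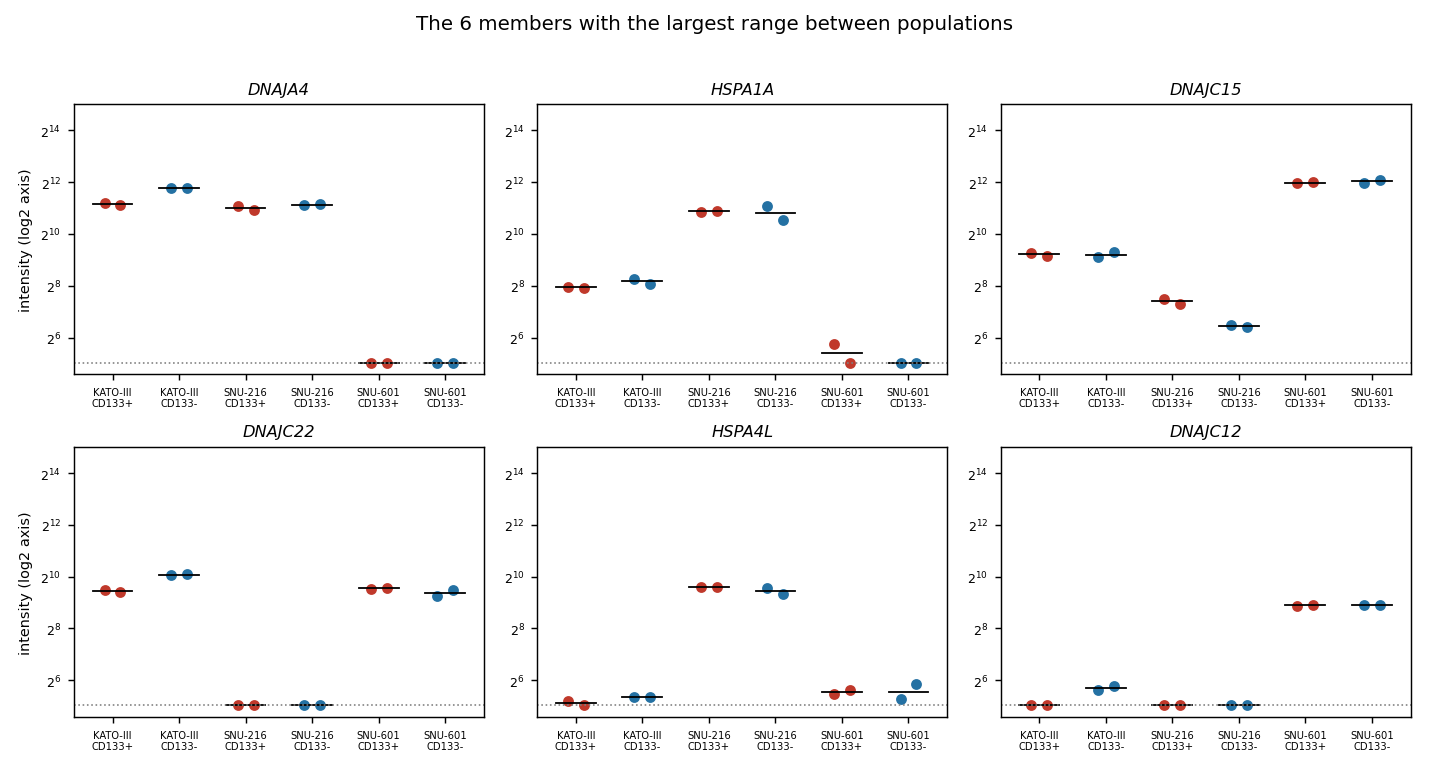
Intensity (log2 axis) of the 6 members with the widest span between populations on each of the 12 arrays, CD133+ in red and CD133- in blue, with a bar at the mean of the 2 log2 values and a dotted line at the floor of 32.7. DNAJA4 and HSPA1A sit at or near the floor in SNU-601, and DNAJC22 and DNAJC12 sit at the floor in SNU-216. DNAJC12 is at or near the floor in KATO-III as well, and HSPA4L is high in SNU-216 alone.

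The main comparison of the study, CD133+ against CD133- cells over the 3 lines, called few members. With line as a block, limma called 1 of 61 members higher (1.64%) and 2 lower (3.28%) in CD133+ cells, beside backgrounds of 2.62% and 2.11% of all tested genes. At an unadjusted p under 0.05, 16 members passed, and of all tested genes 24.5% did. The median log2 difference was -0.03 over the tested members and -0.01 over all tested genes. The signal-to-noise ratio, which divides the difference between the means of the fractions by the sum of their SDs and was the measure by which the study chose genes at thresholds of 1 and -1, lay between -0.96 and 0.74 for the 76 members. None passed either threshold, against 193 of the 34595 genes above 1 and 139 below -1.

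DNAJC19, a J-domain protein of the mitochondrial inner membrane that stimulates the import motor, was the member called higher. In CD133+ against CD133- cells it read 1168 and 1232 against 767 and 845 in KATO-III, 711 and 697 against 414 and 498 in SNU-216, and 1098 and 1043 against 1004 and 972 in SNU-601. The CD133+ arrays were above the CD133- arrays in each line, by 1.49-fold, 1.55-fold and 1.08-fold, and the third of these did not pass its test. Over the lines the log2 difference was 0.44 ± 0.10 (SE, n = 6 arrays a fraction, limma adjusted p = 0.0315).

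DNAJB6, which is known to hold back the aggregation of polyglutamine proteins, was called lower. It read 3511 and 3670 against 4532 and 4657 in KATO-III, 9806 and 9370 against 10710.0 and 10874 in SNU-216, and 5644 and 5690 against 6001 and 6325 in SNU-601. Its CD133+ arrays lay below the CD133- arrays in every line, and the log2 difference over the lines was -0.22 ± 0.05 (limma adjusted p = 0.0338). DNAJC30, a J-domain protein of mitochondria, was the other one. It read 467 and 473 against 531 and 552 in KATO-III, 269 and 256 against 368 and 359 in SNU-216, and 144 and 146 against 174 and 178 in SNU-601, with a log2 difference over the lines of -0.32 ± 0.08 (limma adjusted p = 0.04995). DNAJC30 was the 1 member called lower in all 3 lines (1.64% of the tested members, beside a background of 0.427%).

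All 3 calls were lost when the 2 arrays of each population were averaged first and when population was a random block. When 1 array was left out at a time, DNAJC19 was called in 4 of the 12 fits and was lost without any 1 of the 8 arrays of KATO-III and SNU-216. DNAJB6 was called in 3, lost without any 1 of these 8 or the second CD133- array of SNU-601, and DNAJC30 was called in 0.

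Within the lines many more members differed between the fractions, with the test resting on how far the 2 arrays of each population lay apart. In KATO-III, 12 members were higher (19.7%) and 15 lower (24.6%) in CD133+ cells, beside backgrounds of 18.7% and 20.6%. In SNU-216, 8 were higher (13.1%) and 10 lower (16.4%), beside 14.6% and 14.0%. In SNU-601, 5 were higher (8.20%) and 2 lower (3.28%), beside 8.59% and 7.78%. The shares of members called thus lay close to those of all genes in KATO-III and SNU-216. The median log2 difference of the tested members was -0.01, 0 and -0.00 in the 3 lines. Of the 61 tested members, 25 were called in no line (41.0%, beside a background of 43.8%), 2 in all 3 lines (3.28%, beside 4.97%), and 4 in opposite directions in at least 2 lines (6.56%, beside 10.9%). Those 4 were DNAJB12, DNAJC4, HSPA14 and HSPBP1. The number called in no line included HSPA1A, HSPA8, HSPA9, HSPH1, HSP90AA1, HSP90AB1, DNAJA1 and DNAJB1, and no HSP90 or HSP110 gene was called in any line.

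**Figure D4:**
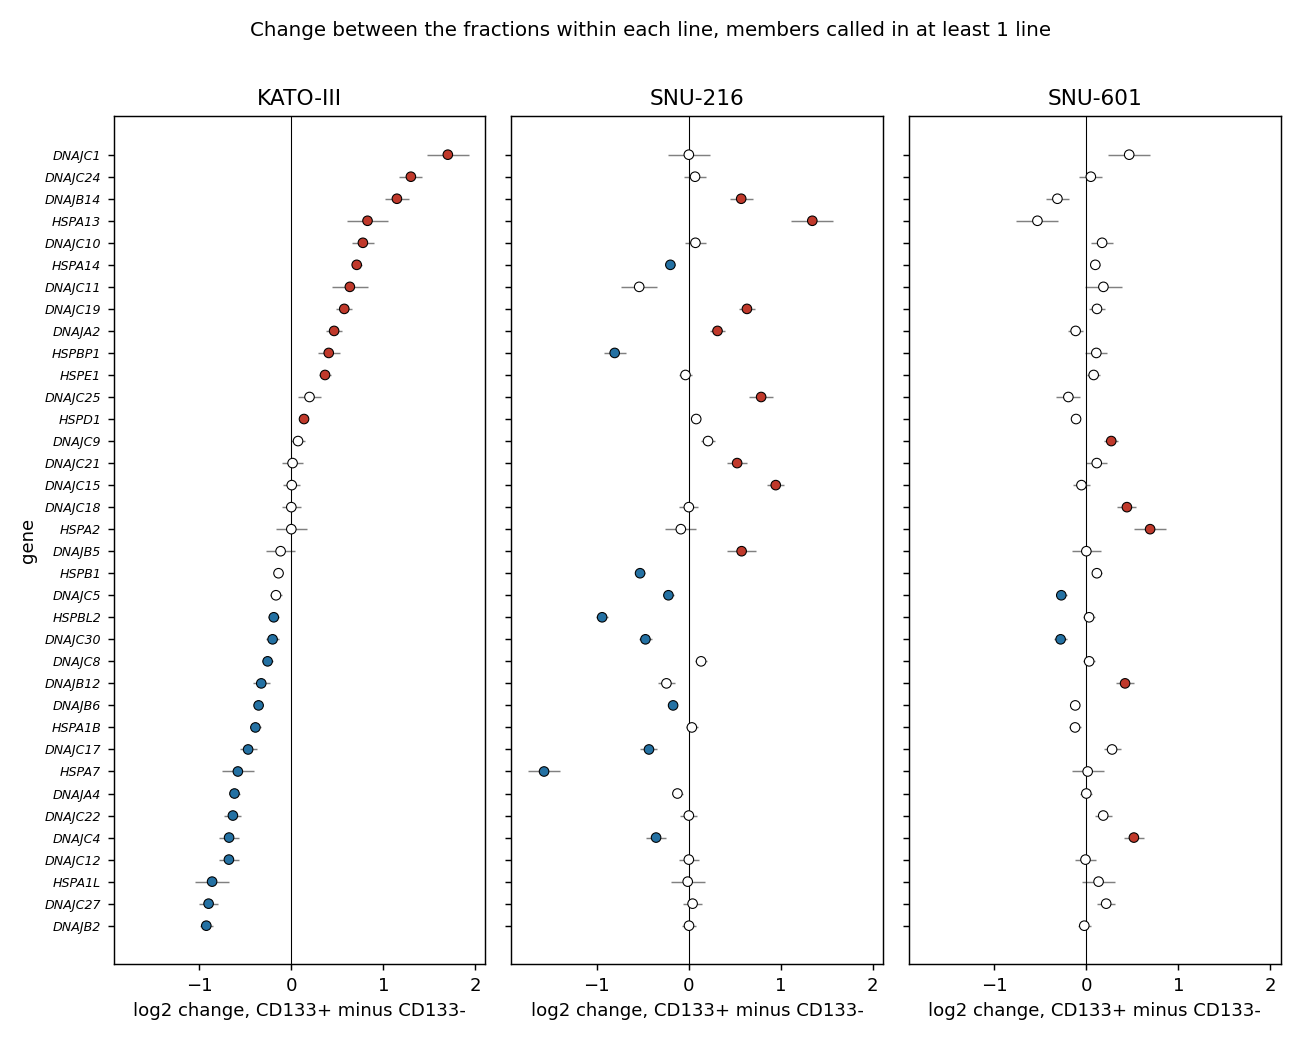
Log2 difference in intensity between CD133+ and CD133- cells within each line for the 36 members called in at least 1 line, ordered by the value in KATO-III. Points are the differences between the means of 2 arrays, bars are standard errors, red points were called higher and blue points lower in CD133+ cells (limma adjusted p under 0.05), and white points were not called. The order seen in KATO-III does not carry over to SNU-601, where DNAJC4 and DNAJB12 lie on the other side of 0.

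In KATO-III, the mitochondrial chaperonin genes were both higher in CD133+ cells. HSPE1, the lid of the chamber, read 5975 and 5835 against 4648 and 4514, a 1.29-fold difference (log2 0.37 ± 0.07, limma adjusted p = 0.00281). HSPD1, the chamber itself, read 6161 and 5930 against 5506 and 5480, a 1.10-fold difference (log2 0.14 ± 0.04, limma adjusted p = 0.0254), which was no longer called without the first CD133+, the first CD133- or the second CD133- array of KATO-III. HSPD1 and HSPE1 are neighbors that share a promoter region, and neither differed between the fractions by test in SNU-216 or SNU-601.

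The largest called increases in CD133+ cells of KATO-III were in J-domain proteins of the ER and the cytosol. DNAJC1, a J-domain protein of the ER membrane, read 143 and 122 against 50.5 and 11.4 (at the floor), a log2 difference of 1.70 ± 0.23 whose size depends on the floor. It was 2.22 with a floor of 16, 0.40 with a floor of 100 and 0.84 with an offset of 100, and was called in each. DNAJC24, which takes part in diphthamide synthesis on the elongation factor of translation, read 213 and 225 against 97 and 81.4, a 2.46-fold difference. DNAJB14, a J-domain protein of the ER membrane, read 263 and 242 against 112 and 116, a 2.22-fold difference. In these 3 genes the fractions of KATO-III were well apart, and the limma adjusted p was 0.000370, 5.82e-05 and 0.000128. HSPA13, a divergent HSP70 of microsomes, read 96.7 and 100.1 against 65.0 and 47.2, a 1.78-fold difference (limma adjusted p = 0.0184) that was lost without either CD133+ array or without the second CD133- array of KATO-III. All 4 are dim genes, and HSPA13 was also lost with a floor of 100.

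On the other side, DNAJB2, a J-domain protein that also binds ubiquitin, read 697 and 789 against 1449 and 1367 in KATO-III. That was a 1.90-fold lower value, while in the other lines its 8 arrays lay between 2076 and 2290. DNAJC27, which joins a J-domain to a small GTPase, read 321 and 357 against 638 and 625, 1.87-fold lower. DNAJC12 was at the floor in both CD133+ arrays and read 49.9 and 54.9 in CD133- cells, at least 1.60-fold lower. HSPA1L read 34.2 and 35 against 53.4 and 74.1, 1.82-fold lower. The limma adjusted p of these 4 was 1.76e-05, 0.000131, 0.00128 and 0.00524, and DNAJC12 and HSPA1L, both close to the floor, were lost with a floor of 100.

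Of the inducible HSP70 genes, HSPA1B was lower in CD133+ cells of KATO-III by 1.31-fold (log2 -0.39 ± 0.06, limma adjusted p = 0.00100), and all fits that left out 1 array kept the call. The log2 difference of HSPA1B was 0.03 in SNU-216 and -0.12 in SNU-601, neither of them called. DNAJA4 was lower in CD133+ cells of KATO-III by 1.53-fold (limma adjusted p = 9.41e-05) and DNAJC22 by 1.55-fold (0.000638). Of 16 tested heat-inducible genes, 3 were higher and 3 lower in KATO-III, HSPA1B among the lower, and HSPA1A, HSPH1 and DNAJB1 were not called. The immediate early genes, which rise within minutes of a stimulus, differed in KATO-III as well. Of these, 9 of 10 were lower in CD133+ cells of KATO-III, beside 20.6% of all tested genes. Their median log2 difference was -0.87, with FOSB at -2.75. Their summed intensity was 24342 and 24769 against 47527 and 47677 in KATO-III. In SNU-601 the sums were 51703 and 52103 against 50589 and 53174. In SNU-216 they were 21064 and 21072 against 25839 and 26227. The part of these genes in the HSPA1B value was not tested.

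In SNU-216, the small heat shock protein HSPB1 (HSP27), an abundant holder of unfolded clients, was lower in CD133+ cells. It read 8451 and 8075 against 12297 and 11571, a 1.44-fold difference (log2 -0.53 ± 0.05, limma adjusted p = 0.000154). Its log2 difference was -0.14 in KATO-III (limma adjusted p = 0.0715) and 0.11 in SNU-601 (0.206), and the change differed between the lines (limma F-test, adjusted p = 0.000526). The copy HSPBL2 moved with it, at 1075 and 1001 against 2046 and 1943 in SNU-216, 1.92-fold lower (limma adjusted p = 1.51e-05). RefSeq lists HSPBL2 as the pseudogene HSPB1P1, and since near-identical copies can share a probe's target, the 2 rows are not independent and the split between them is uncertain. HSPB1 and HSPBL2 were called in all fits that left out 1 array in SNU-216, whereas the smaller call of HSPBL2 in KATO-III (log2 -0.19, limma adjusted p = 0.0362) was lost without the first CD133+ or second CD133- array of KATO-III and without either CD133- array of SNU-601.

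HSPA7 had the largest decrease of the tested members within the 3 lines. It read 81.0 and 72.4 against 207 and 251 in SNU-216, 2.98-fold lower in CD133+ cells (log2 -1.57 ± 0.17, limma adjusted p = 0.000236). In KATO-III it read 92.1 and 84.3 against 143 and 121, 1.5-fold lower (limma adjusted p = 0.0257, lost without either CD133+ array or the first CD133- array of KATO-III). HSPA7 is a transcribed pseudogene next to HSPA6 and close to it in sequence, and HSPA6 itself was at the floor.

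HSPBP1, an exchange factor that releases clients from HSP70, was lower in CD133+ cells of SNU-216 and higher in those of KATO-III. It read 185 and 177 against 318 and 315 in SNU-216 (1.75-fold lower, limma adjusted p = 0.00114). In KATO-III it read 426 and 347 against 303 and 278 (1.33-fold higher, limma adjusted p = 0.0248), a call lost without the first CD133+ or the second CD133- array of KATO-III. The change differed between the lines (limma F-test, adjusted p = 0.00108).

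The members called higher in CD133+ cells of SNU-216 were HSPA13, DNAJC15, DNAJC25, DNAJC19, DNAJB14, DNAJA2, DNAJB5 and DNAJC21. HSPA13 read 111 and 110.5 against 34.7 and 55.2, 2.53-fold higher (limma adjusted p = 0.00234, lost with a floor of 100). DNAJC15 was 1.92-fold higher (log2 0.94 ± 0.09, limma adjusted p = 0.000131), although this line held the lowest DNAJC15 signal of the 3. DNAJC25 read 886 and 876 against 477 and 547, 1.72-fold higher (limma adjusted p = 0.00205). DNAJC19, given above, was 1.55-fold higher (limma adjusted p = 0.000829). DNAJB14 was called higher here too (log2 0.57, limma adjusted p = 0.00923), though not without the second array of either fraction of SNU-216.

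In SNU-601 few members were called, with differences of 1.21-fold to 1.62-fold. HSPA2 read 141 and 181 in CD133+ and 99.7 and 98.2 in CD133- cells, 1.62-fold higher (log2 0.69 ± 0.17, limma adjusted p = 0.0249). DNAJC4 read 518 and 630 against 412 and 387, 1.43-fold higher, and DNAJB12, a J-domain protein of the ER membrane, read 258 and 230 against 190 and 174, 1.34-fold higher (limma adjusted p = 0.0129 and 0.0172). DNAJC18, whose arrays are given above, was 1.36-fold higher (limma adjusted p = 0.0209). DNAJC9 read 8746 and 7956 against 7464 and 6405, 1.21-fold higher (limma adjusted p = 0.0412). Its CD133+ arrays lay above the CD133- arrays in every line. The log2 difference of DNAJC9 over the lines was 0.18 and was not called (limma adjusted p = 0.0697). The 2 members called lower were DNAJC30 and DNAJC5, the cysteine string protein of secretory vesicles, which read 613 and 594 against 687 and 773 (1.21-fold lower, limma adjusted p = 0.0179).

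DNAJC9 was not among the members followed with arrays left out. None of the other 6 calls in SNU-601 was kept in all fits that left out 1 array. DNAJB12 was lost without the first CD133+ or the second CD133- array of SNU-601, DNAJC4 without the second array of either fraction, DNAJC5 without either CD133+ array or the second CD133- array, HSPA2 without the second CD133+ or either CD133- array, and DNAJC18 and DNAJC30 without any 1 of the 4 SNU-601 arrays. By contrast, 14 of 21 calls of named members in KATO-III and 9 of 13 in SNU-216 were kept in all 12 such fits. In SNU-216, DNAJB6 was lost without the second CD133+ or either CD133- array, DNAJC5 without any 1 of the 4 SNU-216 arrays, and DNAJC4 without any 1 of 8 arrays, 4 of them of SNU-216. In KATO-III, DNAJB12 was lost without the second CD133+ or either CD133- array, and DNAJC30 without any 1 of the 12.

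DNAJC4 was the other member called in all 3 lines, and its directions opposed each other. It read 295 and 263 against 460 and 431 in KATO-III (log2 -0.68, limma adjusted p = 0.00110) and 448 and 479 against 623 and 564 in SNU-216 (log2 -0.36, limma adjusted p = 0.0374), and was higher in CD133+ cells of SNU-601 (log2 0.52). DNAJB12 was lower in CD133+ cells of KATO-III (log2 -0.33, limma adjusted p = 0.0231) and higher in those of SNU-601. For both the difference between the lines in the change passed its own test (limma F-test, adjusted p = 0.000708 for DNAJC4 and 0.00316 for DNAJB12). In all, the change differed between the lines for 31 of 61 members (50.8%), beside a background of 44.4%.

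DNAJC5 moved by similar amounts in the 3 lines, with log2 differences of -0.17, -0.22 and -0.27 in KATO-III, SNU-216 and SNU-601. The first of these was not called (limma adjusted p = 0.0615), nor was the value over the lines, -0.22 ± 0.06 (limma adjusted p = 0.0555). DNAJC5 differed by line as well, with 2036 to 2434 over the SNU-216 arrays against 594 to 773 over the 8 others.

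Of the 6 tested genes with the exact heat shock motif in the promoter, DNAJB6 was called lower in KATO-III and SNU-216 and HSPD1 higher in KATO-III. HSP90AA1, HSP90AB1, HSPA8 and DNAJA1 were called in no line. By family, the HSP70 genes had 2 members higher and 3 lower in KATO-III, 1 higher and 2 lower in SNU-216 and 1 higher in SNU-601, out of 9 tested. The 26 tested DNAJC genes had 5 higher and 7 lower, 4 higher and 4 lower, and 3 higher and 2 lower in the same order. The 8 tested DNAJB genes had 1 higher and 3 lower, 2 higher and 1 lower, and 1 higher. Of all tested genes, 18.7% were higher and 20.6% lower in KATO-III, 14.6% and 14.0% in SNU-216, and 8.59% and 7.78% in SNU-601. No family was tested against these shares.

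The regulators and partners of the members were taken from lists of known genes, and their counts stand beside the shares of all tested genes just given. Of the heat shock factors, HSF2 was higher in CD133+ cells of KATO-III and SNU-216 and lower in those of SNU-601, with log2 differences of 0.53, 0.59 and -0.28 (limma adjusted p = 0.000330, 0.000321 and 0.0237). HSF1 was dim, with arrays between 34.8 and 252, and was lower in CD133+ cells of SNU-216 (log2 -0.85, limma adjusted p = 0.0476). HSBP1, also on this list, was lower in CD133+ cells of KATO-III and SNU-216 (log2 -0.31 and -0.15, limma adjusted p = 0.000411 and 0.0306). HSF4 was called in no line. Of the 16 tested of 19 heat-inducible genes, 3 were higher and 3 lower in KATO-III, 2 higher and 2 lower in SNU-216 and none was called in SNU-601 or over the lines. Their median log2 differences were -0.05, 0.01 and -0.01 in the lines. This list shares 13 of its 19 genes with the members.

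The TRiC chaperonin, which folds actin and tubulin in the cytosol, had 6 of 8 subunits higher and 1 lower in CD133+ cells of KATO-III, with a median log2 difference of 0.36. Its TCP1 was higher there by 1.38 and CCT6A by 1.22 (limma adjusted p = 6.98e-05 and 5.11e-05). In SNU-216, 2 subunits were higher and 1 lower, and in SNU-601 1 was lower. Of the HSP70 cofactors, 5 of 9 were higher and 1 lower in KATO-III, among them GRPEL2 and GRPEL1, which exchange the nucleotide of HSPA9 (log2 1.02 and 0.76, limma adjusted p = 0.000217 and 0.000520). The 1 that was lower was BAG3, the heat-inducible partner of HSPB8 (log2 -0.42, limma adjusted p = 3.69e-05), and it was lower in SNU-216 as well (log2 -0.24).

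Of 10 HSP90 co-chaperones, 3 were higher and 2 lower in KATO-III, with PTGES3, the p23 co-chaperone, higher by 1.80 and CHORDC1 by 1.47 (limma adjusted p = 0.000276 and 0.000141), while HSP90AA1 and HSP90AB1 had log2 differences there of -0.03 and -0.05. CHORDC1 was also higher in SNU-216, by 0.65. In the same order of lines, 2 co-chaperones were higher and 2 lower in SNU-216 and none was called in SNU-601. Of 6 prefoldin subunits, which hand clients to TRiC, 2 were higher and 3 lower in KATO-III and 3 higher in SNU-216, and VBP1 was the 1 partner gene of these lists called over the lines (log2 0.39, limma adjusted p = 0.0399). Of 5 mitochondrial chaperone and protease partners, 2 were higher in KATO-III (CLPX by 0.91 and TRAP1 by 0.32) and 3 lower in SNU-216, among them LONP1 and CLPP (log2 -0.72 and -0.62, limma adjusted p = 0.000104 and 0.000370).

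Proliferation genes also differed between the fractions. They were higher in CD133+ cells for 8 of 12 in KATO-III, 3 of 12 in SNU-216 and 9 of 12 in SNU-601, and 1 was lower in KATO-III (CDC20, log2 -0.42) and 1 in SNU-216 (PLK1, log2 -0.56, limma adjusted p = 0.00748). Their median log2 differences were 0.81, 0.02 and 0.56 in the 3 lines, and 5 were called higher over the lines, among them CDC2 (log2 0.85, limma adjusted p = 0.00114). Their summed intensity was 56204 and 56885 against 42381 and 43504 in KATO-III. It was 71059 and 75290 against 69361 and 69771 in SNU-216, and 52791 and 53926 against 38121 and 38834 in SNU-601. Their part in the differences of the chaperone genes was not tested.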

How the data were processed

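Total RNA of sorted cells was amplified with a TotalPrep kit and hybridised to Illumina HT-12 v3 arrays. The deposited values are intensities on a linear scale, read with BeadStudio and quantile-normalized by the authors. They hold 1 row a gene, and how probes were combined is not given in the sources used here. Of 34688 rows, 93 were empty, and 32.1% of values were at or below 0. Anything smaller than 32.7, the absolute value of the 1st percentile, was raised to this floor, a choice made after the scale had been seen. The test, for the 20147 genes that exceeded the floor on 2 or more arrays, was that of limma 3.58.1 under R 4.3.3 (lmFit, eBayes with a trend, Benjamini-Hochberg over all genes tested, called under 0.05). The comparison over lines had line as a block (8 residual degrees of freedom), and the comparisons within and between lines used all 6 populations (6 residual degrees of freedom). Between 16320 and 16474 genes exceeded the floor on an array, and the number of arrays limits the precision. Named were 12 major chaperones, the 4 largest called changes in each direction within each line, members called over the lines or in all 3 lines, and the 6 widest spans. Other named members (such as HSPB8, HSPA14, DNAJC9 and DNAJC5G) and partner genes outside the 2 largest changes of a list were chosen after their values were seen. Members and lists were chosen with earlier results of these data known. Scripts were tested on simulated data. Figures were drawn with matplotlib 3.10.9.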

Additional observations from a re-analysis of the deposited data

Results flagged for a closer look

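The change between CD133+ and CD133- cells differed between the 3 lines for 31 of the 61 tested members (limma F-test of the interaction of line and fraction, adjusted over all genes tested), beside 44.4% of all tested genes. These results are listed because the lines disagreed in size or direction, and no explanation was tested. Among the named HSP70 genes, the adjusted p was 0.01001 for HSPA1B, 0.0232 for HSPA1L, 0.0463 for HSPA2, 0.00215 for HSPA7 and 0.00350 for HSPA13, and for the cofactor HSPBP1 it was 0.00108. It was 0.000526 for HSPB1 and 9.59e-05 for its copy HSPBL2, and 0.0153 for HSPD1 and 0.0211 for HSPE1.

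Among the J-domain genes, it was 0.00134 for DNAJA4, 0.00316 for DNAJB12, 0.000644 for DNAJB14, 0.000175 for DNAJB2 and 0.0280 for DNAJB6. Of the DNAJC genes, it was 0.00558 for DNAJC1, 0.000708 for DNAJC4, 0.00990 for DNAJC12, 0.000533 for DNAJC15, 0.0150 for DNAJC19, 0.00217 for DNAJC22, 0.000665 for DNAJC24, 0.00642 for DNAJC25 and 0.000537 for DNAJC27. DNAJC19 and DNAJB6, both called over the lines, are thus among the members whose change differed in size between them.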

How the results depend on the processing

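The counts of members called in KATO-III and SNU-216, and those of members that differed between the lines or changed differently in them, stayed within 1.5 times under all planned settings other than leaving out an array. Over the lines, 1 member was called higher and 2 lower. Higher calls became 2 with centred arrays and with genes above the floor on all 12 arrays, and 0 without a filter, with averaged populations and with population as a random block. Lower calls became 1 with an offset of 100, centred arrays, repeated quantile normalization and eBayes without a trend, and 0 with averaged populations and the random block. In SNU-601, higher calls fell from 5 to 3 with a floor of 16, without a filter and with all 12 arrays above the floor, and lower calls from 2 to 1 with the offset, centred arrays and all 12 arrays above the floor. Leaving out 1 array gave 8 to 13 higher and 11 to 15 lower calls in KATO-III, 5 to 9 and 6 to 10 in SNU-216, 0 to 4 and 0 to 2 in SNU-601, and 0 to 1 in both directions over the lines. It gave 23 to 30 interactions and 44 to 48 differences between lines. Of 387 values of named calls under the other settings, 45 were no longer called, and of 516 with an array left out, 94. None reversed. The causes were not tested.

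The replicate numbers did not pair the arrays, since the deviations of same-numbered arrays correlated at -0.01 to 0.03 over 15 pairs of populations. With the replicate number as a block, 0 members were called higher and 0 lower over the lines, 12 and 14 in KATO-III, 8 and 10 in SNU-216, and 5 and 2 in SNU-601. Dim members such as HSPA13, HSPA1L and DNAJC12 lie close to the floor, which limits how well their differences are measured.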

Other observations

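HSPA14, an HSP70 tied to the ribosome, was called higher in CD133+ cells of KATO-III and lower in those of SNU-216. DNAJC5G was above the floor on some arrays only, and its difference in SNU-601 was not called (log2 1.5, limma adjusted p = 0.0999).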
